A study of Mus musculus with 27 samples.

Results

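The 9 genes described here encode transcription factors of the Ets family: Etv1, Etv4 and Etv5, Ets1 and Ets2, Elk1, Elk3 and Elk4, and Gabpa. They were chosen by name, out of 22258 named genes, as candidate activators of the long terminal repeats of VL30, a family of endogenous retroviruses. Their expression was followed by RNA-seq in 27 libraries and 12 groups from Setdb1 cKO iMEFs, immortalized mouse embryonic fibroblasts of a single recloned line. Every library, controls included, came from this line with its conditional allele of Setdb1, the histone H3 lysine 9 methyltransferase, which 4-hydroxytamoxifen (4OHT) deletes. No cells without this allele received 4OHT, so effects of 4OHT itself cannot be told apart from those of the deletion. In the total RNA experiment, untreated cells, cells exposed to 4OHT for 4 days and collected on day 5, and long-term KO cells, collected over 2 weeks after 4OHT per the labels, where the methods give a shorter minimum, were sequenced, with 3 libraries in each group. In the siRNA experiment, cells received control siRNA (siCtrl) or siRNA to the DNA methyltransferase gene Dnmt1 (siDnmt1), with or without 4OHT, and were collected on day 6, with 2 libraries in each group. In the inhibitor experiment, cells were left untreated, exposed for 24 h to 150 nM of the histone deacetylase inhibitor TSA, exposed for the last 24 h to 1 µM of the MEK inhibitor PD0325901, given 4OHT and collected on day 6, or given both 4OHT and PD0325901, again with 2 libraries in each group.

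All Ets factors bind DNA through the ETS domain, which recognises a GGA core. Etv1, Etv4 and Etv5 form the PEA3 group, whose genes are commonly transcribed in response to growth factor signalling through Ras, Raf, MEK and ERK. Ets1 and Ets2 are activated by ERK phosphorylation. The Elk proteins are ternary complex factors, which join serum response factor at immediate early genes and are also phosphorylated by ERK, with Elk3 acting as a repressor until it is phosphorylated. Gabpa is the DNA-binding subunit of GABP, a widely expressed regulator of housekeeping and mitochondrial genes.

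The values were FPKM, fragments per kilobase of transcript scaled to the mapped fragments of each library, as deposited. Implied depth ranged from 36.8 to 42.0 M fragments in total RNA, from 13.5 to 15.3 M in siRNA and from 10.8 to 12.6 M in inhibitor libraries. Differences were tested with limma on log2(FPKM + 0.1), an offset that understates the change of low genes. A gene was called changed at an adjusted p under 0.05 over the 8826, 10572 or 11309 genes of the respective experiment with at least 1 FPKM in 3 libraries (total RNA) or 2 libraries (siRNA, inhibitor). The labels do not say that replicates were separate cultures, so the p-values measure the spread between these libraries, which may be technical, and in bulk RNA fewer expressing cells cannot be told apart from less RNA per cell. The 3 experiments were normalized separately and were tested separately. The fibroblast identity was visible in every library: each of 9 fibroblast markers with a value throughout total RNA, and each of 10 in the other experiments, was at 1 FPKM or more. Dnmt1 was at 73.4 and 80.5 FPKM with siCtrl against 10.6 and 12.2 FPKM with siDnmt1. The Setdb1 locus did not track the deletion, at 5.16 to 5.95 FPKM in untreated total RNA, 4.16 to 6.52 FPKM on day 5 and 6.96 to 7.32 FPKM in long-term KO cells. One inhibitor library, PD0325901 replicate 2, carried a file title naming both 4OHT and PD0325901. Its label gave PD0325901 alone and was followed. Member calls that rest on this library are also given without it, while gene lists, interaction values and correlations are given only with it. Setdb1 was at 5.34 and 5.56 FPKM in the PD0325901 libraries and listed at 0 in both 4OHT + PD0325901 libraries. With 4OHT alone on day 6 it was listed at 0 in replicate 1 but at 5.30 FPKM in replicate 2. Its level therefore cannot tell which libraries received 4OHT.

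Not every member could be tested everywhere. Elk1 was merged into the row of a neighbouring gene, Cfp or Cfp and Uxt, in all 9 total RNA libraries, and into the row of Uxt in 2 of 8 siRNA and 3 of 10 inhibitor libraries. Etv1 stayed below 1 FPKM in all 8 siRNA libraries and passed the level filter in total RNA only through long-term KO cells and in the inhibitor experiment only through TSA. A gene that enters through its high group had to differ, so the Etv1 calls against those groups are descriptions. This left 8 members tested in total RNA, 7 in siRNA and 8 in inhibitor libraries. The rows of Elk4 and Gabpa overlap those of their neighbours Mfsd4 and Atp5j, and since the library kit does not mark strand, reads of overlapping genes cannot be told apart. The members lie on 7 chromosomes of mm9, the build of the files: Etv5 at chr16:22381386-22439643, Gabpa at chr16:84835224-84864023 and Ets2 at chr16:95924014-95942656 share chromosome 16, while Etv4 is at chr11:101631062-101646624, Etv1 at chr12:39506845-39594802, Ets1 at chr9:32503627-32565405, Elk3 at chr10:92710161-92773904, Elk4 at chr1:133904182-133922261 and Elk1 at chrX:20510521-20527734.

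The DNA in front of 3 members is shown because these genes followed different courses below: Etv5 was low under MEK inhibition, Etv1 went up in long-term KO cells, and Elk4 carries an Ets motif of its own. Each sequence is the 250 bases upstream of a start annotated by RefSeq in GRCm38.p6, written on the strand of the gene, and its single exact match in mm9 is given as its position. Etv5 is shown from chr16:22439644-22439893 on the minus strand, Etv1 from chr12:39506419-39506668 on the plus strand and Elk4 from chr1:133903947-133904196 on the plus strand. Capitals mark a match to the Ets motif CCGGAAG on either strand.
Etv5: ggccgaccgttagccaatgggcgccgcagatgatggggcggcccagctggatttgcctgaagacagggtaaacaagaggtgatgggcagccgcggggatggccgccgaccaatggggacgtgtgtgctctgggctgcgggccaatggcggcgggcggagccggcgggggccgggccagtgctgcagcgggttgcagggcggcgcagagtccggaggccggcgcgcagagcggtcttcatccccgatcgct
Etv1: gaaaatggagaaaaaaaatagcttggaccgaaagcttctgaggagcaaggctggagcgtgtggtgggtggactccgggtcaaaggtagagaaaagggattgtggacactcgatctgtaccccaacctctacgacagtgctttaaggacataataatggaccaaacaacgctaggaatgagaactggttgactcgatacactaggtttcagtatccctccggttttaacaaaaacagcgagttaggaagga
Elk4: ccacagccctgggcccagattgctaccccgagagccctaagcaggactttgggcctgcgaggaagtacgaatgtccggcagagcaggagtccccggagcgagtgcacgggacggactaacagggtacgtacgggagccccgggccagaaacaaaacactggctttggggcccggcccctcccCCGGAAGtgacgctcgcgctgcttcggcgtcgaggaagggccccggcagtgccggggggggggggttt
RefSeq promoters were used for 7 of the 9 members, those other than Etv4 and Ets1, with 11 starts in all. The motif CCGGAAG was present in 1 of the 3 Elk4 windows, the one shown, and in the Gabpa window, against 6.91% of 32851 mouse promoter windows of this length. The AP-1 motif TGACTCA, held by 4.46% of promoters, and the CArG box bound by serum response factor, held by 1.47%, were found in none of the 11 windows.

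Levels are per length of transcript and can be set beside each other between genes, except that the Gabpa and Elk4 rows may hold reads of overlapping neighbours. In untreated cells of the inhibitor experiment (n = 2, mean ± SD), Gabpa stood highest at 30.6 ± 0.57 FPKM, followed by Elk3 at 25.4 ± 1.16, Etv4 at 14.5 ± 1.07, Ets1 at 14.4 ± 0.43, Elk1 at 12.4 ± 0.21, Etv5 at 8.50 ± 0.12, Ets2 at 7.85 ± 0.29, Elk4 at 4.78 ± 0.74 and Etv1 at 0.945 ± 0.038 FPKM. The libraries of Etv4 and Ets1 overlapped in this order, and those of all other neighbours were separate. In untreated total RNA (n = 3), Gabpa was again highest at 29.3 ± 7.60 FPKM and Etv1 lowest at 0.365 ± 0.039 FPKM, with Elk4 at 16.3 ± 0.35 FPKM beside Elk3 at 16.7 ± 0.37 FPKM, whose libraries overlapped. Etv1 was the only member with a value that stayed under 1 FPKM in the untreated cells of both experiments.

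The MEK inhibitor addressed what happens to these factors when ERK signalling is blocked. Etv4 and Etv5 were almost lost and Etv1 was listed at 0, whereas Ets2 and Elk4 did not pass the test. Elk3 fell to a smaller extent, and Ets1 was slightly higher. Of the 8 members tested, 5 were changed by PD0325901, 1 higher and 4 lower, against 13.7% of all genes tested. Their median log2 fold change was -0.69.

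Etv4 was at 13.8 and 15.3 FPKM in untreated cells and at 0.103 and 0.0350 FPKM under PD0325901. The groups were far apart, with a log2 fold change of -6.46 (SE 0.24, limma adjusted p = 1.09e-05), the 8th lowest of all 11309 genes. Cufflinks gave intervals reaching 0 for both treated libraries, so the remaining level was not distinguishable from none at this depth. Etv5 was at 8.58 and 8.42 FPKM in untreated and at 0.341 and 0.102 FPKM in inhibited cells, a log2 fold change of -4.85 (SE 0.38, limma adjusted p = 0.000401) and the 17th lowest. Etv1 was at 0.918 and 0.972 FPKM in untreated cells and listed at 0 in both PD0325901 libraries (limma adjusted p = 0.000429), for which no fold is given. For all 3 genes every untreated library lay above every inhibited one. These calls held without PD0325901 replicate 2, with log2 fold changes of -6.17 for Etv4 and -4.29 for Etv5 (limma adjusted p = 5.34e-05 and 0.000995), with Etv1 at an adjusted p of 0.00325. They also held without any other single library, Etv1 being untested without a TSA library.

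**Figure D1:**
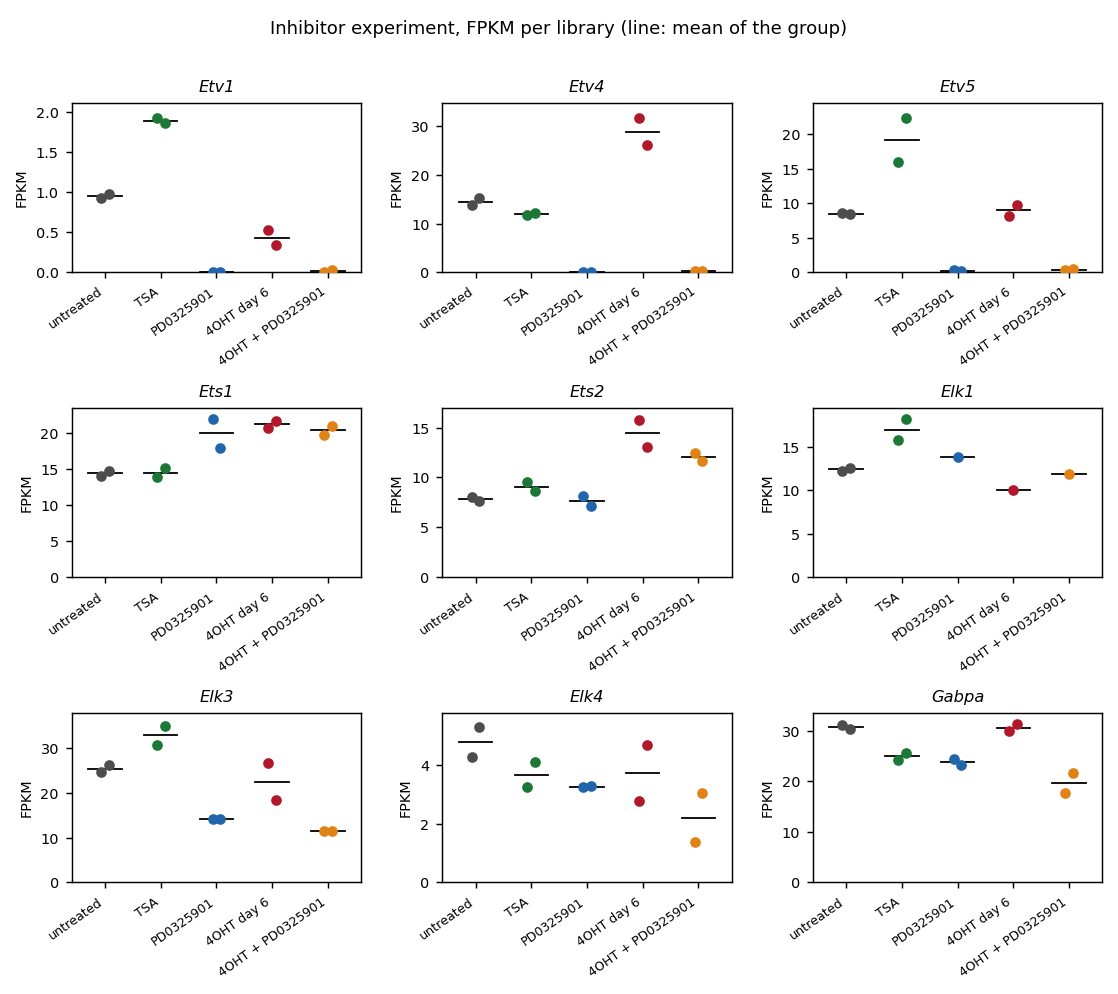
FPKM of the 9 members in each library of the inhibitor experiment, with 1 panel per gene, points for libraries and lines for group means, and with Elk1 libraries merged with a neighbour left out. Etv1, Etv4 and Etv5 lie at or near 0 in both groups given PD0325901, while Ets1 and Gabpa stay at 17.6 FPKM or more in every library given PD0325901.

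The other members moved less. Elk3, a ternary complex factor, was at 24.6 and 26.2 FPKM in untreated and at 14.2 and 14.1 FPKM in inhibited cells, a log2 fold change of -0.84 (SE 0.17, limma adjusted p = 0.0181), and the groups did not overlap. This call was lost without either untreated or either PD0325901 library, with adjusted p between 0.059 and 0.121. Ets1 was at 14.1 and 14.7 FPKM in untreated and at 22.0 and 17.9 FPKM in inhibited cells, a log2 fold change of 0.46 (limma adjusted p = 0.0488), which kept its call in only 1 of 10 fits that each left out 1 library, the one without PD0325901 replicate 2. In the other 9 fits its adjusted p ran from 0.0582 to 0.236. Ets2 was at 8.06 and 7.65 FPKM in untreated and at 8.18 and 7.15 FPKM in inhibited cells, with overlapping groups. Gabpa was at 31.1 and 30.2 FPKM in untreated and at 24.3 and 23.2 FPKM in inhibited cells, and its log2 fold change of -0.37 did not pass the test (limma adjusted p = 0.0766). Elk4 was at 4.26 and 5.30 FPKM against 3.24 and 3.28 FPKM (limma adjusted p = 0.415). Elk1 had a value of its own in both untreated libraries, at 12.3 and 12.6 FPKM, and in 1 inhibited library, at 13.8 FPKM. The summed level of the fibroblast markers also moved, from 3043 to 3307 FPKM in untreated cells and from 4762 to 5263 FPKM under PD0325901, and its part in these differences was not tested.

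Under 4OHT the same inhibitor was compared with 4OHT alone. Etv1, Etv4 and Etv5 were again at the floor, and Elk3 and Gabpa were lower. Of the 8 members tested, 5 were changed and all 5 were lower, against 6.94% of all genes tested. Etv4 was at 31.7 and 26.1 FPKM with 4OHT and at 0.269 and 0.260 FPKM with 4OHT + PD0325901, a log2 fold change of -6.31 (SE 0.24, limma adjusted p = 1.14e-05) and the 4th lowest of 11309 genes. Etv5 went from 8.22 and 9.80 FPKM to 0.255 and 0.390 FPKM, a log2 fold change of -4.44 (SE 0.38, limma adjusted p = 0.00117) and the 15th lowest. Etv1 went from 0.524 and 0.332 FPKM to 0.0219 FPKM in 1 library and a listed 0 in the other (limma adjusted p = 0.00458). In each of these genes the groups were separate, and the calls held without any single library, except that Etv1 was untested without either TSA library. Fitting only the groups compared left 2 members called, Etv4 and Etv5.

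Elk3 was at 26.7 and 18.3 FPKM with 4OHT and at 11.5 and 11.6 FPKM with both agents, a log2 fold change of -0.93 (SE 0.17, limma adjusted p = 0.0209). Gabpa was at 29.9 and 31.2 FPKM against 17.6 and 21.7 FPKM, a log2 fold change of -0.64 (SE 0.11, limma adjusted p = 0.019). The groups of both genes were separate. The Elk3 call was lost without 4OHT day 6 replicate 1 or either 4OHT + PD0325901 library (adjusted p 0.0513 to 0.0876), and the Gabpa call without either untreated library, either 4OHT day 6 library or 4OHT + PD0325901 replicate 1 (adjusted p 0.0514 to 0.0792). Ets1, at 20.7 and 21.7 FPKM against 19.7 and 21.0 FPKM, overlapped between the groups, and Ets2, at 15.7 and 13.1 FPKM against 12.4 and 11.6 FPKM, did not pass the test (limma adjusted p = 0.344). Elk4 overlapped too, at 2.76 and 4.68 FPKM against 1.37 and 3.04 FPKM, and Elk1 had 1 value of its own in each group, 9.99 and 11.9 FPKM.

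The difference between the inhibitor's effect with and without 4OHT was tested as an interaction. None of the 8 members passed (limma, 2 at an unadjusted p under 0.05, namely Etv1 and Ets1), against 0.743% of all genes tested. For Etv4 the difference of the effects was 0.16 on the log2 scale (SE 0.33, limma adjusted p = 0.877) and for Etv5 0.41 (SE 0.54, limma adjusted p = 0.774). The inhibited values of both genes, at 0.0350 to 0.390 FPKM, lay near the offset of 0.1 FPKM, which limits these differences. When the 2 inhibited groups were compared directly, 2 of 8 members were higher with 4OHT + PD0325901 than with PD0325901 alone, against 8.16% of all genes tested. These were Etv4, from 0.103 and 0.0350 FPKM to 0.269 and 0.260 FPKM, and Ets2, from 8.18 and 7.15 FPKM to 12.4 and 11.6 FPKM (log2 fold changes 1.14 and 0.64, limma adjusted p = 0.0287 and 0.0375). For Etv4 this is a difference near the offset, and its level under PD0325901 alone was not distinguishable from none. The groups of both genes were separate, but without PD0325901 replicate 2 neither passed (adjusted p = 0.0886 and 0.151). The Etv4 call held in 3 and the Ets2 call in 2 of the 10 fits that left out 1 library. It was also lost for Etv4 without either untreated, TSA or 4OHT + PD0325901 library, and for Ets2 without those libraries or PD0325901 replicate 1, with adjusted p from 0.0516 to 0.151 over both genes. The median over all genes was 0.09 here, and both calls ended under quantile normalization.

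The total RNA experiment compared untreated cells, cells on day 5 of 4OHT treatment and long-term KO cells. No long-term culture without 4OHT was among the groups, so time in culture cannot be told apart from loss of Setdb1 in long-term KO cells. Over these groups in this order Etv4 and Etv5 were lower in steps and Etv1 was higher in steps, while Ets1 and Gabpa passed no test. In long-term KO cells Etv4 was 10.5-fold and Etv5 4.64-fold lower than in untreated cells on the log2(FPKM + 0.1) scale. On day 5, 5 of 8 members were changed, 1 higher and 4 lower, against 37.3% of all genes tested. In long-term KO cells 4 of 8 members differed from untreated cells, 1 higher and 3 lower, against 67.9% of all genes tested. From day 5, 5 of 8 differed, 2 higher and 3 lower, against 66.4%. Etv1 was the 1 higher member against untreated cells and 1 of the 2 higher against day 5. It entered the test only through long-term KO cells, so its part in both counts is a description. Even with Etv1 counted, the shares of members were near or below those of all genes in the long-term comparisons. Etv4 and Etv5 had the largest changes among the members tested there, followed by Etv1, at a log2 fold change of 1.65 against untreated cells.

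Etv4 was at 17.2, 18.9 and 19.2 FPKM in untreated cells, at 11.8, 12.9 and 13.7 FPKM on day 5 and at 1.71, 1.74 and 1.55 FPKM in long-term KO cells. The 3 groups did not overlap. Against untreated cells the log2 fold change was -0.52 (SE 0.07, limma adjusted p = 0.00095) on day 5 and -3.39 (SE 0.07, limma adjusted p = 1.57e-08) in long-term KO cells, the 64th lowest of 8826 genes. Etv5 was at 10.1, 11.3 and 10.6 FPKM, then at 7.15, 7.35 and 7.11 FPKM, then at 2.27, 2.23 and 2.15 FPKM, again without overlap. Its log2 fold changes were -0.56 (SE 0.05, limma adjusted p = 8.58e-05) and -2.21 (SE 0.05, limma adjusted p = 1.67e-08), the latter the 163rd lowest. Both genes were also lower in long-term KO cells than on day 5, with log2 fold changes of -2.87 and -1.66 (limma adjusted p = 4.09e-08 and 7.67e-08). These calls held without any single library. One row of Etv5, in day 5 replicate 3, had a different extent from the others.

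Etv1 ran the other way, from 0.356, 0.408 and 0.331 FPKM in untreated cells to 0.954, 0.514 and 0.575 FPKM on day 5 and 1.47, 1.34 and 1.26 FPKM in long-term KO cells, with no overlap. The log2 fold changes were 0.71 (limma adjusted p = 0.0292) on day 5 and 1.65 in long-term culture, the latter a description, since Etv1 entered the test through that group. The day 5 call was lost without untreated replicate 1 or untreated replicate 3 (adjusted p = 0.0746 to 0.0806). In long-term KO cells the group means of Etv1 and Etv4 were 1.36 and 1.67 FPKM, against 0.365 and 18.4 FPKM in untreated cells.

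**Figure D2:**
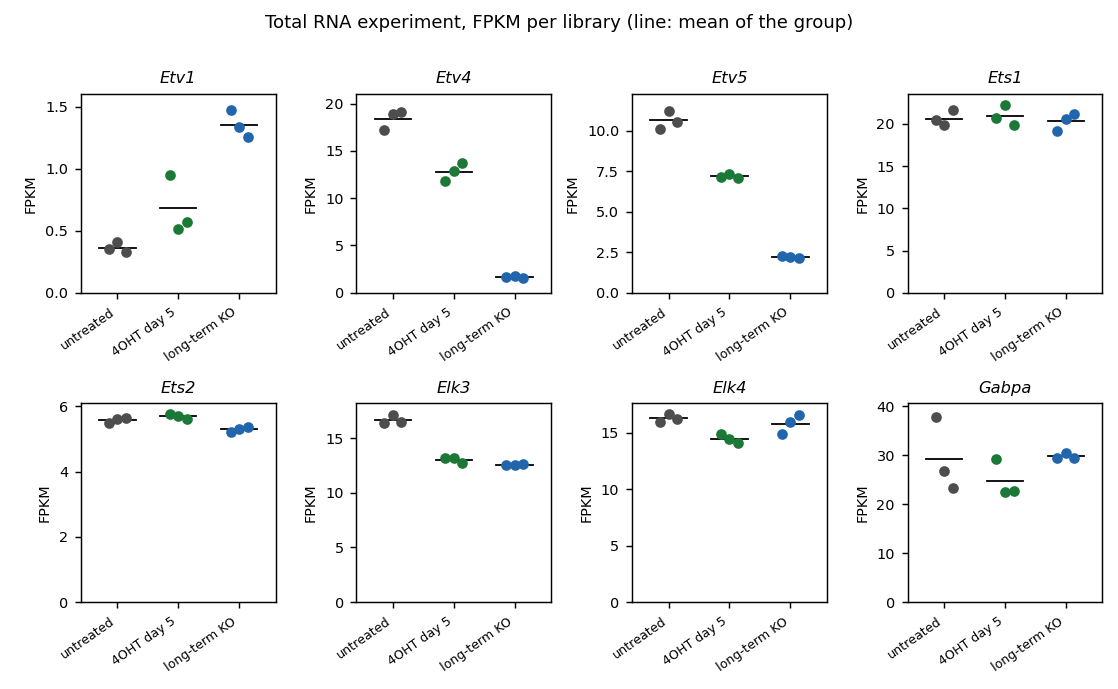
FPKM of 8 members in each of the 9 total RNA libraries, with 1 panel per gene, points for libraries and lines for group means, and without Elk1, which was merged with a neighbour in every library. Etv4 and Etv5 step down from untreated cells to day 5 to long-term KO cells and Etv1 steps up, with no overlap between the groups.

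Elk3 was lower on day 5 and in long-term KO cells, and only the step between them did not pass (limma adjusted p = 0.164). It was at 16.4, 17.1 and 16.5 FPKM in untreated cells, at 13.2, 13.2 and 12.7 FPKM on day 5 and at 12.6, 12.5 and 12.6 FPKM in long-term KO cells, with log2 fold changes against untreated cells of -0.35 and -0.40 (limma adjusted p = 0.000103 and 1.04e-05). Both of these groups lay below the untreated one, and both calls held without any single library. Elk4 was at 15.9, 16.6 and 16.2 FPKM, then at 14.9, 14.4 and 14.1 FPKM, then at 14.9, 16.0 and 16.5 FPKM. It was lower on day 5 (log2 fold change -0.17, limma adjusted p = 0.0228) and higher in long-term KO cells than on day 5 (0.13, limma adjusted p = 0.0394). The first call was lost without untreated replicate 2 or 3 or day 5 replicate 2 or 3 (adjusted p 0.0529 to 0.0721), and the second held only without day 5 replicate 1 or long-term KO replicate 1, with adjusted p from 0.0508 to 0.123 in the other 7 fits.

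Ets1 stayed between 19.2 and 22.3 FPKM in all 9 libraries, and its 3 groups overlapped. Ets2 was at 5.49, 5.63 and 5.63 FPKM, then at 5.78, 5.71 and 5.61 FPKM, then at 5.23, 5.32 and 5.35 FPKM, and the last step passed the test at a log2 fold change of -0.10 (SE 0.03, limma adjusted p = 0.0218). That call was lost without day 5 replicate 1, day 5 replicate 2 or long-term KO replicate 1 (adjusted p 0.0559 to 0.0652). Gabpa was at 37.8, 26.7 and 23.3 FPKM in untreated cells, at 29.2, 22.4 and 22.8 FPKM on day 5 and at 29.5, 30.5 and 29.3 FPKM in long-term KO cells, and its row extents varied between libraries. The spread in untreated cells was wide, and no comparison of Gabpa passed. The summed fibroblast markers were at 1732 to 1743 FPKM in untreated cells, 1412 to 1494 FPKM on day 5 and 1864 to 1931 FPKM in long-term KO cells, while 5 summed epithelial markers were at 1.22 to 1.56, 4.19 to 5.27 and 0.377 to 0.620 FPKM in the same order. The part of these shifts in the members' values was not tested.

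Treatment with 4OHT was also profiled on day 6 in the inhibitor experiment, where the picture for the PEA3 group differed. Etv4, Ets1 and Ets2 were higher and Etv1 was lower than in untreated cells, while Etv5 and the remaining factors did not pass the test. Of 8 members, 4 were changed, 3 higher and 1 lower, against 25% of all genes tested. Etv4 was at 13.8 and 15.3 FPKM in untreated and at 31.7 and 26.1 FPKM on day 6, a log2 fold change of 0.98 (SE 0.24, limma adjusted p = 0.0221). Ets2 was at 8.06 and 7.65 FPKM in untreated and at 15.7 and 13.1 FPKM on day 6 (log2 fold change 0.86, SE 0.15, limma adjusted p = 0.00632). Ets1 went from 14.1 and 14.7 FPKM to 20.7 and 21.7 FPKM (0.56, SE 0.12, limma adjusted p = 0.0172). These groups were separate, as were those of Etv1, which went from 0.918 and 0.972 FPKM to 0.524 and 0.332 FPKM (-1.01, limma adjusted p = 0.0323).

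Etv5, at 8.58 and 8.42 FPKM against 8.22 and 9.80 FPKM, overlapped between the groups. Elk3 was at 24.6 and 26.2 FPKM against 26.7 and 18.3 FPKM, and Gabpa at 31.1 and 30.2 FPKM against 29.9 and 31.2 FPKM, both with overlap. Elk4 also overlapped, at 4.26 and 5.30 FPKM against 2.76 and 4.68 FPKM. The day 6 calls rested on few libraries. Without untreated replicate 2 none of the 4 passed. The calls of Etv4 and Ets1 were also lost without untreated replicate 1 or either 4OHT day 6 library (adjusted p 0.0521 to 0.131 over both genes), that of Etv1 without untreated replicate 1 or 4OHT day 6 replicate 2 (0.129 to 0.156), and that of Ets2 only without untreated replicate 2 (0.0559). Setdb1 itself was listed at 0 in 1 day 6 library and at 5.30 FPKM in the other, and the summed fibroblast markers were at 2507 to 2548 FPKM on day 6 against 3043 to 3307 FPKM in untreated cells, whose part was not tested.

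The siRNA experiment set Dnmt1 siRNA beside 4OHT treatment. The Setdb1 locus did not track 4OHT here either, at 5.54 to 7.40 FPKM in the 4 libraries without 4OHT and 5.00 to 7.58 FPKM in the 4 libraries with it. Etv4 was the member with the largest difference, being about 2.13-fold higher with siDnmt1, but no member passed the test in any of the siRNA comparisons. With siDnmt1 against siCtrl, 0 of 7 members passed in limma (1 at an unadjusted p under 0.05), against 8.08% of all genes tested. With 4OHT + siCtrl against siCtrl the count was 0 of 7 (3 at an unadjusted p under 0.05), against 13.8% of all genes. With 4OHT + siDnmt1 against 4OHT + siCtrl it was 0 of 7 (1 at an unadjusted p under 0.05), against 2.06%, and against siDnmt1 it was 0 of 7 (2 at an unadjusted p under 0.05), against 13.9%. The interaction of both treatments passed for 0 of 7 members (1 at an unadjusted p under 0.05), against 0.199% of all genes.

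Etv4 was at 13.8 and 13.2 FPKM with siCtrl, at 30.2 and 27.6 FPKM with siDnmt1, at 28.4 and 18.9 FPKM with 4OHT + siCtrl and at 20.4 and 34.0 FPKM with 4OHT + siDnmt1. All 6 treated libraries lay above both siCtrl libraries, and the 3 treated groups overlapped each other. The log2 fold change with siDnmt1 was 1.09 (SE 0.28, limma adjusted p = 0.0701) and with 4OHT + siCtrl 0.78 (SE 0.28, limma adjusted p = 0.115). Etv5 was at 6.92 and 7.90 FPKM with siCtrl, at 10.9 and 10.4 FPKM with siDnmt1, at 11.2 and 4.72 FPKM with 4OHT + siCtrl and at 9.11 and 9.78 FPKM with 4OHT + siDnmt1. The 4OHT + siCtrl libraries of Etv5 stood on both sides of every other group. This pair differed most among all replicate pairs, with a median absolute log2 difference of 0.321 over all genes. Its libraries also differed in the keratin gene Krt8, at 0.215 and 6.97 FPKM, and in the macrophage gene Cd68, at 3.30 and 8.58 FPKM, whose part was not tested. Left out one at a time, the 4OHT + siCtrl libraries decided several calls. Without replicate 1 or without replicate 2, Etv4, Etv5 and Ets2 passed with siDnmt1 (limma adjusted p 0.027 to 0.0426), and Etv4 also passed there without either 4OHT + siDnmt1 library (0.0481 and 0.0485). Etv1, untested here, was at 0.931 and 0.888 FPKM with siCtrl and at 0.482 and 0.337 FPKM with siDnmt1.

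**Figure D3:**
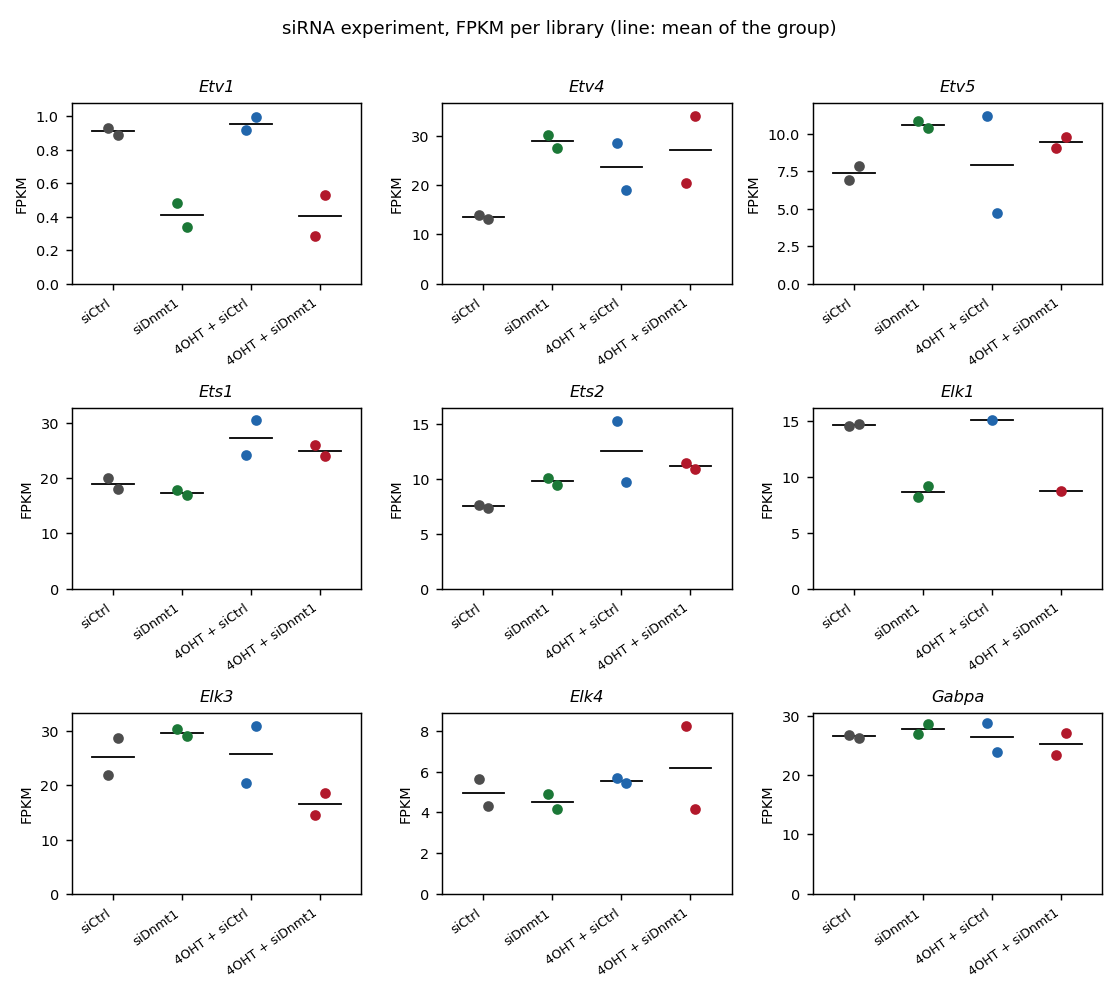
FPKM of the 9 members in each of the 8 siRNA libraries, with 1 panel per gene, points for libraries and lines for group means, and with Elk1 libraries merged with a neighbour left out. Both siCtrl libraries of Etv4 lie below all 6 treated libraries, and the 2 libraries of 4OHT + siCtrl lie far apart for Etv5.

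Ets1 was at 20.0 and 18.0 FPKM with siCtrl, 17.8 and 17.0 FPKM with siDnmt1, 24.2 and 30.6 FPKM with 4OHT + siCtrl and 26.0 and 24.0 FPKM with 4OHT + siDnmt1. Each 4OHT library was above each library without 4OHT, with log2 fold changes of 0.52 at either siRNA (limma adjusted p = 0.0575 with siCtrl and 0.0565 with siDnmt1). Ets2 was at 7.66 and 7.37 FPKM, 10.1 and 9.45 FPKM, 15.3 and 9.72 FPKM, and 11.4 and 10.9 FPKM in the same order, so that siCtrl alone was lowest (0.69 for 4OHT + siCtrl against siCtrl, limma adjusted p = 0.0801). Elk3 was at 21.9 and 28.8 FPKM, 30.4 and 29.0 FPKM, 20.5 and 31.0 FPKM, and 14.4 and 18.7 FPKM, with 4OHT + siDnmt1 below all other libraries (-0.85 against siDnmt1, limma adjusted p = 0.0651). Without 4OHT + siCtrl replicate 1 or 2, Ets1 and Elk3 passed for 4OHT + siDnmt1 against siDnmt1 (adjusted p 0.0128 to 0.0212). Etv5 passed for 4OHT + siCtrl against siCtrl in opposite directions, at -0.64 without 4OHT + siCtrl replicate 1 and at 0.59 without replicate 2 (adjusted p = 0.0276 and 0.0274). In that comparison Ets1 also passed without replicate 1 (0.0124) and Etv4 and Ets2 without replicate 2 (0.0467 and 0.00472). For 4OHT + siDnmt1 against 4OHT + siCtrl, Etv5 and Elk3 passed without replicate 1 (0.0105 and 0.0389). Gabpa stayed between 23.4 and 28.8 FPKM and Elk4 between 4.14 and 8.27 FPKM, both with overlap in most comparisons, and the highest Elk4 value came from a row of another extent, in 4OHT + siDnmt1 replicate 1.

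Elk1 had its own value in 6 siRNA libraries. It was at 14.5 and 14.7 FPKM with siCtrl, 8.19 and 9.16 FPKM with siDnmt1, 15.1 FPKM in 1 library of 4OHT + siCtrl and 8.77 FPKM in 1 library of 4OHT + siDnmt1. Each siDnmt1 library was below each siCtrl library. In an added fit that dropped only the merged libraries, siDnmt1 gave a log2 fold change of -0.75 (SE 0.13, limma adjusted p = 0.0482), and fitting only the groups compared gave an adjusted p of 0.0059. Epithelial markers moved with siDnmt1. Their summed level over 5 markers was at 0.677 to 0.986 FPKM with siCtrl and 55.7 to 56.0 FPKM with siDnmt1, and at 1.18 to 12.6 FPKM with 4OHT + siCtrl and 53.9 to 86.6 FPKM with 4OHT + siDnmt1, led by Krt8, with 2 markers at 1 FPKM or more in both siDnmt1 libraries. Summed fibroblast markers were at 4138 to 4220 FPKM with siCtrl, 3245 to 3364 FPKM with siDnmt1 and 2117 to 2603 FPKM with 4OHT + siCtrl. The part of these shifts in the members' values was not tested.

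TSA was applied to ask what histone deacetylase inhibition changes. Etv5 was higher, Etv4 was not, and the other factors apart from Etv1 did not pass. Of 8 members, 2 were changed and both were higher, against 55.9% of all genes tested. Etv1 entered the test only through TSA and is given as a description, which leaves Etv5 as the 1 call among 7 members. Etv5 was at 8.58 and 8.42 FPKM in untreated and at 16.0 and 22.3 FPKM in TSA-treated cells (log2 fold change 1.14, SE 0.38, limma adjusted p = 0.034). Etv1 was at 0.918 and 0.972 FPKM against 1.92 and 1.86 FPKM, a log2 fold change of 0.93. Etv4 was at 13.8 and 15.3 FPKM against 11.8 and 12.1 FPKM (-0.28, limma adjusted p = 0.35). The groups of all 3 genes were separate. The Etv5 call was lost without either untreated or either TSA library (adjusted p 0.0534 to 0.181), and it also ended with a pseudocount of 0.01.

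Among the others, Elk3 was at 24.6 and 26.2 FPKM against 30.8 and 35.0 FPKM (limma adjusted p = 0.1) and Gabpa at 31.1 and 30.2 FPKM against 24.2 and 25.5 FPKM (limma adjusted p = 0.0564). Elk1 had its own value in all 4 libraries, at 12.3 and 12.6 FPKM against 15.8 and 18.2 FPKM, and in the added fit its log2 fold change of 0.45 did not pass (limma adjusted p = 0.0513), while fitting only the groups compared gave the same value and passed (adjusted p = 0.019). Ets1 overlapped between the groups at 14.1 and 14.7 FPKM against 13.9 and 15.1 FPKM. Ets2, at 8.06 and 7.65 FPKM against 9.53 and 8.63 FPKM, and Elk4, at 4.26 and 5.30 FPKM against 3.24 and 4.08 FPKM, were separate without passing the test (limma adjusted p = 0.261 and 0.441). Markers of other cell types moved with TSA: the epithelial sum was at 34.3 to 40.9 FPKM against 1.28 to 1.39 FPKM in untreated cells, and the sum of the blood markers, almost all from Cd68, at 61.0 to 67.3 FPKM against 4.42 to 5.03 FPKM. Their part was not tested.

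**Figure D4:**
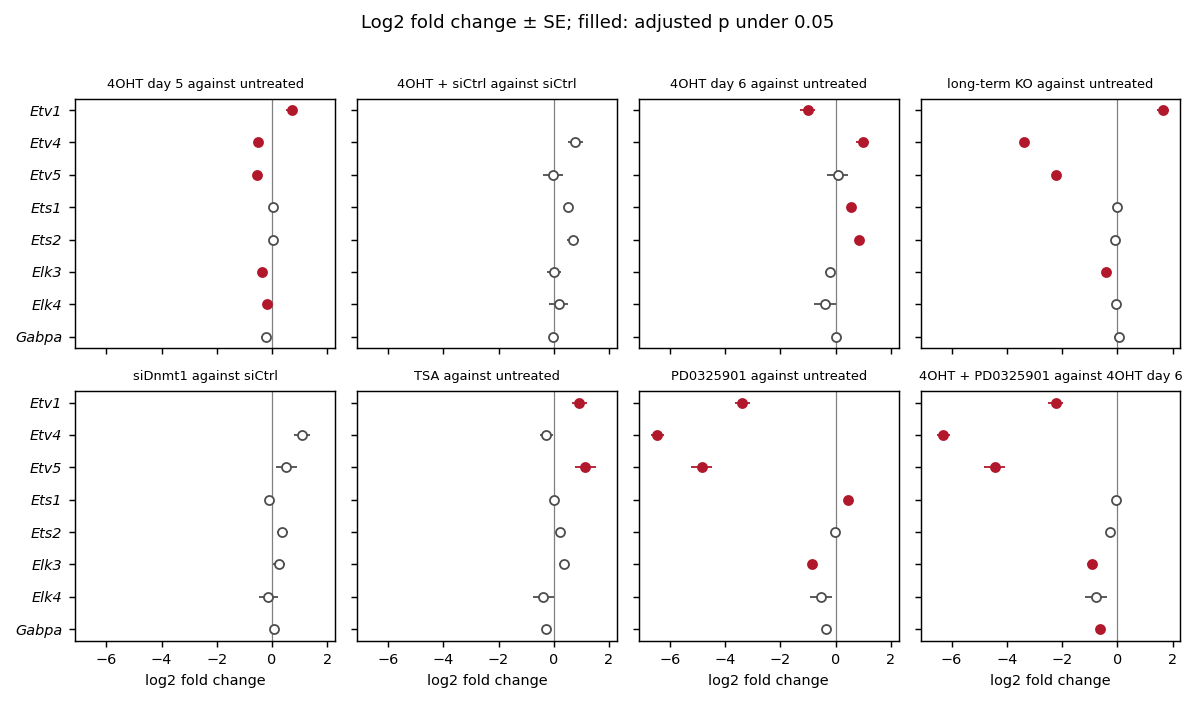
Log2 fold changes of the members on the log2(FPKM + 0.1) scale, with bars of 1 standard error, in 8 comparisons, where filled red points passed limma at an adjusted p under 0.05. The filled Etv1 points for long-term KO and TSA against untreated cells are descriptions, since Etv1 entered the test through those groups. Etv4 and Etv5 reach -6.46 and -4.85 under PD0325901 and -3.39 and -2.21 in long-term KO cells, while the other members except Etv1 stay between -1 and 1.

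Likeness between genes was described by the correlation of log2(FPKM + 0.1), centred on each experiment's mean, over 27 libraries and 8353 genes tested in all 3 experiments. Etv4 and Etv5 followed each other at a Pearson r of 0.95. The genes most like Etv4 were Spred2, which encodes an inhibitor of Raf activation, at 0.97 and Prkg2, a cGMP-dependent kinase gene, at 0.95, and the gene most like Etv5 was Dusp6, which encodes an ERK phosphatase, at 0.96, with Etv4 next. Ets1 was most like Ctu1 and Wdr20 (both 0.87), Ets2 most like Skiv2l2 and Smn1 (both 0.88) and Elk3 most like Dpy19l1 and G6pdx (both 0.90). Elk4 reached 0.78 with Traf3ip1 and 0.77 with Prrc2c, and Gabpa 0.73 with Cmtm4 and Pola1. Libraries of 1 experiment share their preparation and controls, and the 4 libraries with PD0325901 weigh heavily on the Etv4 and Etv5 values.

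The pathway around the factors was followed through lists chosen by function. Of 18 other genes commonly induced by ERK, 11 were lower and 0 higher under PD0325901, with a median log2 fold change of -1.69, and 10 were lower and 0 higher for 4OHT + PD0325901 against 4OHT, with a median of -1.70. The largest under PD0325901 were Fosl1, an AP-1 subunit gene, which was at 6.00 to 6.67 FPKM in untreated cells and listed at 0 in both treated libraries, Spry4, a feedback inhibitor of receptor signalling, at -5.42, and Egr3, an immediate early zinc finger gene, at -3.92 (limma adjusted p = 0.0323, 0.000371 and 0.00155). In long-term KO cells 15 of these 18 were lower than in untreated cells and 0 were higher, with a median of -1.08, among them Myc at -2.42 and Spry4 at -1.75 (limma adjusted p = 6.29e-08 and 7.19e-07). On day 5, 3 were higher and 5 lower with a median of -0.06, and on day 6, 1 was higher and 5 lower with a median of -0.29. Egr3 was lower at both times, by log2 fold changes of -1.11 and -2.73 (limma adjusted p = 0.00012 and 0.00494), and Dusp4, another phosphatase gene of the pathway, was higher, by 0.73 and 2.32 (limma adjusted p = 0.00452 and 0.00269). These counts stand beside 13.7%, 6.94%, 67.9%, 37.3% and 25% of all genes called in the same order of comparisons, and beside medians over all genes of -0.07 under PD0325901, 0.04 for 4OHT + PD0325901 against 4OHT and 0.07 in long-term KO cells.

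The kinases upstream of the factors showed no such shared direction. Of 12 Ras-ERK pathway kinase genes tested, 3 were higher and 1 lower under PD0325901, against 13.7% of all genes tested, with a median log2 fold change of 0.11, among them Braf at 1.22 and the ribosomal S6 kinase gene Rps6ka2 at 0.75 (limma adjusted p = 0.00877 and 0.0153). In long-term KO cells 5 of 11 were higher and 4 lower, against 67.9% of all genes, with a median of 0.04, among them Rps6ka2 at -1.51 and Mapk3, which encodes ERK1, at 1.12 (limma adjusted p = 3.5e-07 and 3.55e-07). The list of partner genes comprised serum response factor, its myocardin-related coactivators, the GABP beta subunits and the AP-1 subunits. Among those tested, 2 of 12 were changed under PD0325901, 1 in each direction, against 13.7% of all genes, and 8 of 10 in long-term KO cells, 5 higher and 3 lower, against 67.9%. The largest of the latter were AP-1 subunit genes. Fosl1 was at 2.86 to 3.47 FPKM in untreated and 0 to 0.871 FPKM in long-term KO cells (log2 fold change -3.96, limma adjusted p = 0.00274), and Fosb was at 1.94 and Fosl2 at -1.83 on the log2 fold change scale (limma adjusted p = 4.93e-06 and 1.62e-06).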

How the data were processed

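RNA-seq of Setdb1 cKO iMEFs gave 27 libraries in 12 groups, assigned from the labels. Per the submitters' processing notes, alignment used TopHat2 2.0.12 and the genome build was mm9. The authors ran Cufflinks on each library separately, and the deposited values are FPKM per gene and library. A read with several hits was kept at 1 position, which can shift values between similar copies. The total RNA libraries were made after ribosomal RNA removal, so their levels are not comparable with those of the other experiments. In total RNA, where rows carry no gene names, a gene took the row covering at least 95% of its locus in the named libraries.

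FPKM were tested with limma 3.58.1 in R 4.3.3 (trended variances, two-sided, Benjamini-Hochberg adjustment over all genes tested) on log2(FPKM + 0.1), with all groups of 1 experiment in a fit, after a filter at 1 FPKM in 3 or 2 libraries. The authors' own comparison files, with group FPKM, fold changes and p-values, were not used. The fits were tested on simulated data. In all, 12 comparisons between groups and 2 interactions were made. The replicate numbers were not taken as pairing, since the labels name no shared batch and not every pair correlated above 0.1. All pairs among PD0325901, 4OHT day 6 and 4OHT + PD0325901 did, at 0.206 to 0.259, so these groups may be paired. Within each group no replicate duplicated another, and libraries of different groups were not compared in this way. The members and lists were chosen with earlier results of these data known, and the members are always named. From each other list at most the 3 largest changes past the threshold were named, and for each member tested in all experiments the 2 genes most like it. Alternatives covered the pseudocount, filter, scaling, samples in the fit, locus matching, fold criterion, replicate block and leaving out each library, and 1 alternative, keeping genes with missing values, was added after seeing the data. Depth was implied from the FPKM and the authors' intervals cover counting error only. A comparison of protein sequences was not made.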

Additional observations from a re-analysis of the deposited data

Results flagged for a closer look

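For Etv4, 4OHT went with lower values in total RNA and with higher values in 2 comparisons of the other experiments. Every day 5 library of the total RNA experiment lay below every untreated library, with a log2 fold change of -0.52. Every 4OHT + siCtrl library lay above every siCtrl library, at 0.78, and every 4OHT day 6 library of the inhibitor experiment above every untreated one, at 0.98. With 4OHT + siDnmt1 against siDnmt1 the groups overlapped, at -0.13 (limma adjusted p = 0.773). The day 5 and day 6 values passed limma (adjusted p = 0.00095 and 0.0221) and the siRNA value did not (adjusted p = 0.115). For Etv1, the day 5 libraries all lay above the untreated ones, at 0.71, and the day 6 libraries of the inhibitor experiment all lay below, at -1.01 (limma adjusted p = 0.0292 and 0.0323), at levels of 0.331 to 0.972 FPKM in these groups. Collection day, RNA preparation and normalization differed between these experiments and cannot be told apart from each other, and the difference itself was not tested. In groups of 2 or 3 libraries no search for a library far from its group could be made.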

How the results depend on the processing

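Of 107 fold changes of the factors other than Elk1, which had none in the main fits, 32 passed limma, and 0 of these changed sign under any alternative. The 32 include those of Etv1 with TSA and in long-term KO cells against untreated cells and against day 5. These are descriptions, since Etv1 entered the test through those groups. The other 75 did not pass, and 34 of them changed sign under at least 1 alternative, 12 of them other than by leaving out a library. The counts of factors past the threshold were steady to within 1.5 times except as follows. A fold change of at least 2 as a further criterion left 0 on day 5, 2 for long-term KO against day 5, 3 under PD0325901, 1 with TSA, 1 on day 6, 3 for 4OHT + PD0325901 against 4OHT and 1 for 4OHT + PD0325901 against PD0325901. Rows of an identical locus, which left 3 of the factors tested in total RNA, gave 2 on day 5, 1 in long-term KO cells and 2 for long-term KO against day 5. Fitting only the groups compared gave 4 with siDnmt1, 2 for 4OHT + siDnmt1 against siDnmt1, 3 under PD0325901, 5 with TSA, 2 for 4OHT + PD0325901 against 4OHT and 0 against PD0325901. The added fit with missing values gave 1 with siDnmt1, Elk1. Median-ratio scaling gave 1 for 4OHT + siDnmt1 against siDnmt1 and 1 for 4OHT + PD0325901 against PD0325901, quantile normalization 0 for the latter, a pseudocount of 0.01 gave 0 with TSA and 2 on day 6, a pseudocount of 1 gave 1 for 4OHT + PD0325901 against PD0325901, and a minimum of 5 FPKM gave 1 with TSA. The cause of these changes was not tested. The replicate numbers were not taken as pairing. Same-numbered samples correlated above 0.1 in 1 of 9, 0 of 12 and 6 of 20 pairs of total RNA, siRNA and inhibitor libraries. In groups of 2 libraries both replicate numbers give the same correlation by construction, so each siRNA and inhibitor value is counted under both numbers. The 6 were all the pairs among PD0325901, 4OHT day 6 and 4OHT + PD0325901 (0.206 to 0.259), so these groups may be paired. With the replicate block the count was 1 for 4OHT + siDnmt1 against siDnmt1 and within 1.5 times of the main count in the other comparisons. Leaving out each library in turn gave 3 to 5 on day 5, 3 to 4 in long-term KO cells and 3 to 4 for long-term KO against day 5, 0 to 3 with siDnmt1, 0 to 3 with 4OHT + siCtrl, 0 to 2 for 4OHT + siDnmt1 against either control, 3 to 5 under PD0325901, 0 to 3 with TSA, 0 to 4 on day 6, 3 to 5 for 4OHT + PD0325901 against 4OHT, 0 to 2 against PD0325901, and 0 for both interactions. A lone library left in a group was assumed to vary like the other groups. Over the same fits, Etv5 ran from -0.64 to 0.59 for 4OHT + siCtrl against siCtrl and from -0.25 to 0.98 for 4OHT + siDnmt1 against 4OHT + siCtrl. Among all genes, fitting only the groups compared moved the calls from 854 to 3832 with siDnmt1, 1455 to 184 with 4OHT + siCtrl, 218 to 28 and 1465 to 2676 for 4OHT + siDnmt1 against 4OHT + siCtrl and against siDnmt1, 785 to 103 for 4OHT + PD0325901 against 4OHT and 923 to 282 against PD0325901. With the replicate block the 4 siRNA counts were 522, 967, 85 and 906, and with a minimum of 5 FPKM those with siDnmt1 and for 4OHT + siDnmt1 against 4OHT + siCtrl were 569 and 112. The siRNA interaction had 21 calls, with 13 under the replicate block, 12 at 5 FPKM, 32 with a pseudocount of 1 and 50 without a filter. The fold criterion left 300, 1253 and 1137 calls in total RNA, 511 with siDnmt1, 639 with 4OHT + siCtrl and 602 for 4OHT + siDnmt1 against siDnmt1, of 854, 1455 and 1465. In the inhibitor experiment it left 820 of 1550 under PD0325901, 3628 of 6317 with TSA, 1253 of 2825 on day 6, 427 of 785 for 4OHT + PD0325901 against 4OHT and 503 of 923 against PD0325901. Rows of an identical locus left 1405, 2372 and 2301 calls in total RNA against 3295, 5994 and 5862. Median-ratio scaling moved the share of higher calls from 38.5% to 52.3% with siDnmt1, 52.7% to 40.2% with 4OHT + siCtrl, 66.6% to 35.2% for 4OHT + siDnmt1 against siDnmt1, 43.3% to 53.3% under PD0325901, 62.0% to 51.8% for 4OHT + PD0325901 against 4OHT, 67.6% to 49.9% against PD0325901 and 71.4% to 56.1% for the PD0325901 interaction. Scaling moved the median of all genes by up to -0.16 for 4OHT + siDnmt1 against siDnmt1, -0.12 for 4OHT + PD0325901 against PD0325901 and for that interaction, and -0.11 with TSA. Values near the offset, as those of Etv1 and of Etv4 and Etv5 under PD0325901, are limited by depth.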

Other observations

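The other Ets genes were mostly below the level filter in these fibroblasts. Of 17 family genes outside the 9 factors, 5 were tested in total RNA and siRNA libraries and 6 in the inhibitor libraries. In long-term KO cells 4 of 5 were higher than in untreated cells and 0 were lower, against 67.9% of all genes called in either direction, with a median log2 fold change of 0.26 beside 0.07 over all genes. These included Etv6, which encodes a repressor of the family, at 0.59 and Elf2 at 0.52 (limma adjusted p = 0.000254 and 0.00344). On day 5, 2 of 5 were higher, against 37.3% of all genes called, Elf1 at 0.36 and Elf4 at 0.29 (limma adjusted p = 0.0017 and 0.00297). Under PD0325901 the 1 changed gene of 6 was Etv6, at 7.95 to 8.46 FPKM in untreated and 11.6 to 13.0 FPKM in inhibited cells (limma adjusted p = 0.0489). With TSA, Spib, a gene otherwise typical of blood cells, was at 0.0822 to 0.211 FPKM in untreated and 2.72 to 3.12 FPKM in treated cells (limma adjusted p = 0.000247), and it entered the test only through TSA.

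Markers of further cell types stayed low. The summed level of 5 endothelial markers was highest with TSA, at 2.04 to 2.27 FPKM, against 0.129 to 0.211 FPKM in untreated cells of that experiment. Summed over 3 pluripotency markers, levels were led by Nanog in every group. The sum was 1.69 to 2.18 FPKM on day 6 of 4OHT and 0.992 to 1.31 FPKM in untreated inhibitor libraries, with the other 2 markers listed at 0 in both groups. It was 1.39 to 1.81 FPKM with TSA, 0.575 to 0.730 FPKM with PD0325901 and 0.912 to 1.11 FPKM with 4OHT + PD0325901. The siRNA libraries gave 1.16 to 1.18 FPKM with siCtrl, 1.28 to 1.54 FPKM with siDnmt1, 1.95 to 2.01 FPKM with 4OHT + siCtrl and 1.59 to 1.87 FPKM with 4OHT + siDnmt1. Total RNA gave 0.209 to 0.356 FPKM untreated, 0.405 to 0.476 FPKM on day 5 and 1.13 to 1.24 FPKM in long-term KO cells.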
